A study of Mus musculus with 6 samples.

Results

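The suppressor of cytokine signalling (SOCS) family was followed in N9 microglia, an immortalised mouse microglial cell line, with and without lipopolysaccharide (LPS), a glycolipid from the bacterial outer membrane that activates Toll-like receptor 4. Its 8 members, Socs1 to Socs7 and Cish, were taken by gene symbol from a deposited table of read counts for 54532 genes, and each symbol matched 1 gene. Of the 8, 6 had enough counts to be tested among 12296 genes, and Socs2 and Cish did not. The study sequenced RNA from 3 control samples of untreated cells and 3 samples treated with LPS at 1 µg/ml for 6 h, all kept in the same serum-containing medium. The comparison asks which genes differ between microglia with and without this inflammatory stimulus. N9 is a single line, and the sources used here do not say that the replicates were separate cultures, so the p-values measure only the spread between these samples, which may be technical.

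SOCS proteins are inducible brakes on cytokine receptors. Cytokines such as interferons and members of the interleukin 6 family bind receptors that activate Janus kinases (JAK), which phosphorylate STAT transcription factors, and STAT factors then induce SOCS genes whose products switch the same receptors off. Each SOCS protein has a central SH2 domain that binds phosphotyrosine and a C-terminal SOCS box that recruits elongins B and C and cullin 5 into a ubiquitin ligase, and Socs1 and Socs3 also carry a short region that blocks the kinase directly. In microglia and macrophages Socs1 and Socs3 are known as feedback inhibitors of interferon and interleukin 6 signalling, and Socs1 also restrains the response to LPS.

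With LPS the 2 kinase-blocking members were higher, and 2 members with long N-terminal regions were lower by a small amount. Socs1 was 5.17-fold and Socs3 4.21-fold higher with LPS, and both met the criteria for a differentially expressed gene (DEG), an adjusted p under 0.05 with an absolute log2 fold change over 1.5. Socs4 fell by 17.9% and Socs6 fell by 17.5%, calls that several alternatives did not keep. Socs5 and Socs7 did not pass the test. Of the 6 tested members 4 were called at an adjusted p under 0.05, where 34.3% of all tested genes were. The 2 called higher stood beside 18.7% of all tested genes, the 2 called lower beside 15.7%, and the 2 DEG beside 2.65%. Socs1 entered the test only through its LPS libraries, so counts that include it are no fair comparison with the shares given here. Between the groups the libraries of 5 of the 6 tested members did not overlap in CPM, the read count scaled to a common library total after TMM normalization, which held for 45.3% of all tested genes.

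The libraries held 16363767 to 17956772 counts each, and 3 counts corresponded to 0.161 to 0.19 CPM. All 12 microglia and macrophage markers examined were in the table, 11 of them tested, and their summed level was 2590 to 2670 CPM in the control libraries and 2670 to 2750 CPM with LPS. Aif1, a defining marker of microglia, was at 4 to 9 counts in every library. Members of the list moved apart, Trem2 from 2397 to 2503 counts in control to 1481 to 1705 with LPS and Spi1 from 4804 to 5242 counts to 6705 to 7114. Markers of T cells summed to 5.86 to 6.77 CPM in control and 9.09 to 11.7 CPM with LPS, with Cd3e, Cd3g and Cd8a at 0 and Lck, at 106 to 116 counts in control and 145 to 178 with LPS, the one member with more than 5 counts in a library. Those of neurons summed to 27.3 to 28.3 and 28.5 to 32.6 CPM, with Map2 at 383 to 432 counts in control and 252 to 300 with LPS and Tubb3 at 58 to 81 and 179 to 231 counts. Astrocyte markers summed to 96.0 to 98.7 and 96.0 to 105 CPM. Among them Aldh1l1 had 476 to 534 counts in control and 350 to 403 with LPS, and Gja1 had 1151 to 1279 and 1223 to 1267. Oligodendrocyte markers summed to 45.6 to 54.3 and 42.6 to 43.5 CPM with Olig2 at 0. Among them Mbp had 616 to 672 counts in control and 457 to 467 with LPS, and Cnp had 225 to 256 and 219 to 235. Endothelial markers summed to 41.0 to 45.8 and 46.7 to 53.5 CPM with Cldn5 at 0. Of the 15 hepatocyte markers 14 were in the table and none was tested, and their summed level was 0.234 CPM in control replicate 1, 18 and 26.7 CPM in control replicates 2 and 3, and 0.366 to 1.04 CPM with LPS. Control replicates 2 and 3 stand apart in this respect, and the edgeR comparison was also fitted without them, which leaves 1 control library that is assumed to vary as the LPS libraries do. The part of these markers in the results was not tested.

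Promoters are shown because SOCS genes are known targets of STAT factors. Those of the 2 DEG and of the untested Cish hold letters that STAT and interferon-responsive factors are known to recognise. Socs2, Socs5, Socs6 and Socs7 had no promoter entry, so their letters were not read. Of the 8 members 4 matched the RefSeq promoter table, on GRCm38.p6, which gives 250 bases before to 50 after the start site: Socs1 at chr16:10785487-10785786 on the minus strand, Socs3 at chr11:117969317-117969616 on the minus strand, Cish at chr9:107296409-107296708 on the plus strand and Socs4 at chr14:47276670-47276969 on the plus strand. Each is printed 5′ to 3′ on the strand of its gene. Capitals mark matches, on either strand, to the STAT element GAS, spelled TTCNNNGAA, and to the interferon-stimulated response element ISRE, spelled GAAA, any 2 bases, GAAA.
Socs1: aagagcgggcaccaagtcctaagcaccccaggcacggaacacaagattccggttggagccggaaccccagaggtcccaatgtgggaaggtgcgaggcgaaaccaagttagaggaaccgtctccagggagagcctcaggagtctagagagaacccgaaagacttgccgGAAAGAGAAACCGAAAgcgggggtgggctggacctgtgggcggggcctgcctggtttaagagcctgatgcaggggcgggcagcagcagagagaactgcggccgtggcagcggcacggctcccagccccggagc
Socs3: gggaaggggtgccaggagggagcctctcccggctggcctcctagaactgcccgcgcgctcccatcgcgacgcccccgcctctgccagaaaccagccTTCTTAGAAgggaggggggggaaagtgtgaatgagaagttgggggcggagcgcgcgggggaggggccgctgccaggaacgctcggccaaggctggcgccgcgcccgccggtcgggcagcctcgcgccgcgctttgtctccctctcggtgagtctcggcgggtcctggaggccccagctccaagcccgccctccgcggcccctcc
Cish: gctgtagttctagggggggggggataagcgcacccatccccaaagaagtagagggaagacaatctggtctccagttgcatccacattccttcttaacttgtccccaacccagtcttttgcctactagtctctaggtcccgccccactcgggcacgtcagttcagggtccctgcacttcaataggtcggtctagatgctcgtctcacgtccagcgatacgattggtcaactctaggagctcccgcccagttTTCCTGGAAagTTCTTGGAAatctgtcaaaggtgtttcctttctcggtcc
Socs4: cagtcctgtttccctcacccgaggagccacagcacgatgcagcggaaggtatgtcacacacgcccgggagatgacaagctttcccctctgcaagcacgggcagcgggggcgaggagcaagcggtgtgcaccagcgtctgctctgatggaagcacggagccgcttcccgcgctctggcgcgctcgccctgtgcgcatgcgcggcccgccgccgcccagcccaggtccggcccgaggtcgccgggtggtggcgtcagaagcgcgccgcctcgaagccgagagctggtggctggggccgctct

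In the Socs1 promoter the capitals are 2 overlapping ISRE matches, GAAAGAGAAA at −83 to −74 and GAAACCGAAA at −77 to −68, counted from the start site as +1. The Socs3 promoter held 1 GAS match, TTCTTAGAA at −154 to −146. The Cish promoter held 2 GAS matches, TTCCTGGAA at +1 to +9 and TTCTTGGAA at +12 to +20, both past the start site, so that none remained when only the 250 bases before it were read. Socs4 had neither motif. Among 32851 promoters of the same length 8.3% held a GAS match and 3.44% an ISRE match. A wider STAT spacing, TTC and GAA with any 4 bases between them, was found in 6.95% of promoters and in none of the 4 members. A loose NF-κB pattern, GGG and CC with any 5 bases between them, which overlapped neither motif, was found 3 times in Socs1 and once in each of Socs3, Cish and Socs4, and in 50.8% of all promoters. GC content was 63.3% in Socs1, 73.3% in Socs3, 70.7% in Socs4 and 53.3% in Cish, where the median promoter had 52.7%, and the CpG counts were 18, 31, 34 and 11 against a median of 7. The RefSeq start lay 0 bases from the 5′ end of the gene in the deposited table for Socs1 and 11 bases before it for Socs4. For Cish and Socs3 it lay 633 and 681 bases inside the gene. The printed Cish and Socs3 windows thus lie wholly within the gene as counted. Positions before or after the start hold only for the RefSeq start. A match is a run of letters, and binding was not measured.

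**Figure D1:**
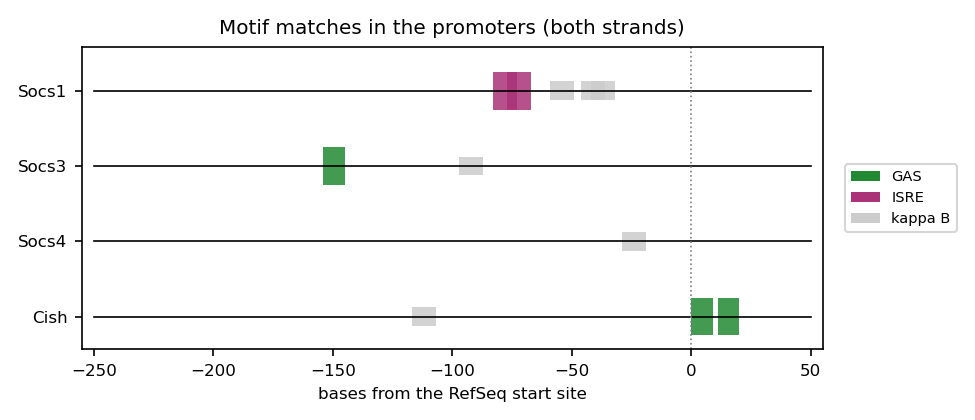
Positions of motif matches in the promoters of Socs1, Socs3, Socs4 and Cish, in bases from the RefSeq start site (dotted line). Socs1 shows 2 overlapping ISRE matches and Socs3 1 GAS match before the start, Cish shows 2 GAS matches after it, and Socs4 shows a κB match alone.

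Socs3 (ENSMUSG00000053113, chr11:117966079-117970047, minus strand, build mm10) encodes the inhibitor that binds the shared interleukin 6 receptor subunit gp130 and the kinases beside it. It was counted 675, 684 and 734 times in the control replicates, in order, and 2596, 2800 and 2639 times in the LPS replicates. In CPM these were 39.4, 38.8 and 39.5 against 165, 171 and 161. The control libraries lay within a narrow band, every LPS library was far above it, and the groups did not overlap. The mean rose from 39.2 ± 0.389 CPM (SD, n = 3) to 165 ± 5.08 CPM (SD, n = 3). The log2 fold change was 2.08 (SE 0.05, 95% interval 1.97 to 2.18), a fold of 4.21 (3.93 to 4.52), with an adjusted p of 8.21e-14 by edgeR's quasi-likelihood test. The median standard error over all tested genes was 0.082, and 1.5% of tested genes had a higher log2 fold change than Socs3. All 16 alternatives kept the call, between 1.98 and 2.1. Tested against a log2 fold change of 1.5 itself with edgeR's glmTreat, Socs3 passed with an adjusted p of 7.92e-08.

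Socs1 (ENSMUSG00000038037, chr16:10782240-10785536, minus strand) encodes the inhibitor of JAK kinases at interferon receptors. It was rarely counted: 5, 8 and 6 reads in the control replicates, in order, and 30, 27 and 34 reads in the LPS replicates. The corresponding levels were 0.292, 0.454 and 0.323 CPM in control and 1.9, 1.65 and 2.07 CPM with LPS. The LPS libraries all lay above the control libraries. The mean rose from 0.356 ± 0.0858 CPM (SD, n = 3) to 1.87 ± 0.213 CPM (SD, n = 3). The log2 fold change was 2.37 (SE 0.36, 95% interval 1.59 to 3.15), a fold of 5.17 (3.01 to 8.89), with an edgeR adjusted p of 0.000128. Its control libraries were under the filter's minimum of 10 counts, so Socs1 entered the test through its LPS libraries. The call was kept by all 16 alternatives, with log2 fold changes of 2.07 to 2.65 and adjusted p of 1.62e-06 to 0.0101, but not by glmTreat against 1.5 (adjusted p = 0.255). The interval for Socs1 includes the whole interval for Socs3, and a difference between the 2 folds was not tested. Of all tested genes 1.17% had a higher log2 fold change than Socs1. RNA was taken from whole cultures, so more cells expressing a gene and more RNA per cell cannot be told apart, for any gene described.

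**Figure D2:**
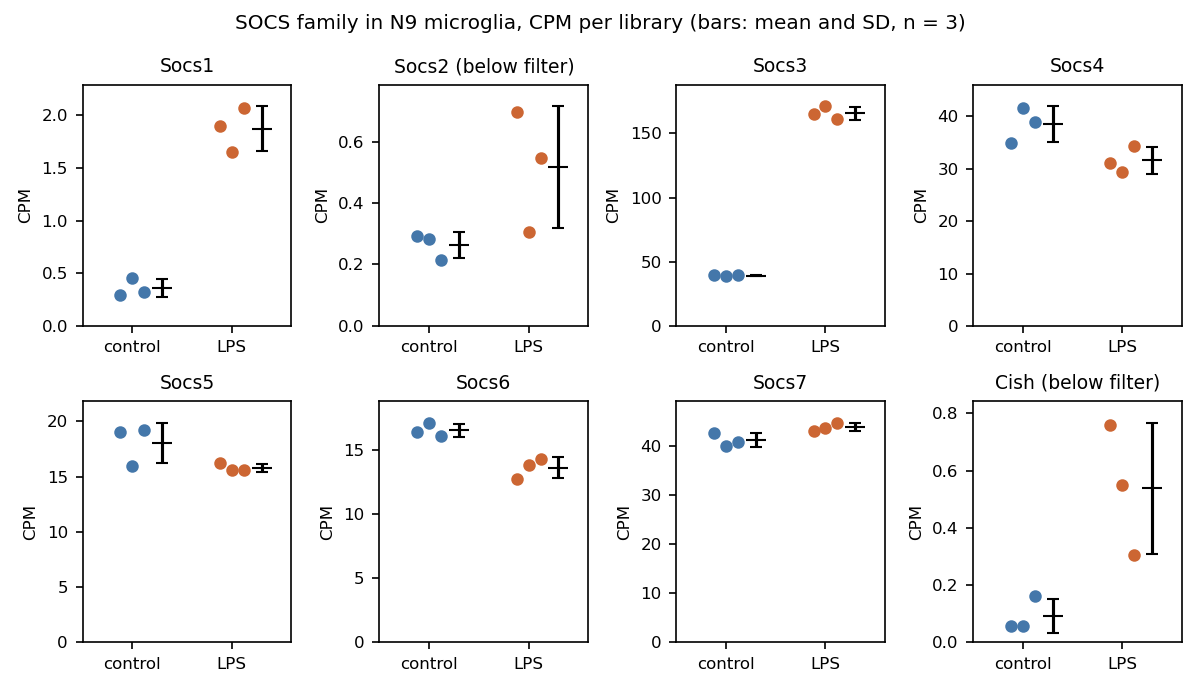
CPM of each SOCS gene in each of the 6 libraries (points, control in blue and LPS in orange), with the mean and SD of 3 libraries per group in black and each vertical axis starting at 0. Socs3 and Socs1 show control and LPS libraries far apart, while the groups lie close together for Socs4 to Socs7.

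Cish and Socs2 are the members that STAT5 is known to induce, Cish binding receptors of the erythropoietin and interleukin 2 type and Socs2 the growth hormone receptor. Both were too low for the test. Cish (ENSMUSG00000032578, chr9:107296026-107302784, plus strand) had 1, 1 and 3 counts in the control replicates and 12, 9 and 5 in the LPS replicates. In CPM the means were 0.0922 ± 0.06 (SD, n = 3) and 0.538 ± 0.228 (SD, n = 3), and the groups did not overlap. Summed over the libraries, 5 control counts stood against 26 LPS counts, a depth-scaled ratio of 5.71 with an exact counting interval of 2.16 to 19.0. This interval covers counting error only, since without molecular identifiers 1 molecule may give several reads. With no filter on low counts edgeR gave a log2 fold change of 2.43 (adjusted p = 0.0307), while DESeq2 gave 2.52 (adjusted p = 0.0655). With 1 library left out in turn the log2 ratio of the scaled counts, 2.51 over all libraries, ranged from 2.19 without LPS replicate 1 to 3.22 without control replicate 3. In an edgeR fit against control replicate 1 alone, which held 1 count, the log2 fold change of Cish was 3.04. The Cish locus overlaps an antisense gene, Gm17041, and a pseudogene, Gm17040, and both had 0 counts in all libraries.

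Socs2 (ENSMUSG00000020027, chr10:95385362-95417180, minus strand) had 5, 5 and 4 counts in the control replicates and 11, 5 and 9 in the LPS replicates. The lowest LPS library held as many reads as the highest control libraries. The means were 0.264 ± 0.0421 CPM (SD, n = 3) and 0.517 ± 0.198 CPM (SD, n = 3). The ratio of summed counts, 25 against 14, was 1.96 with an exact counting interval of 0.981 to 4.08, which includes no difference. Without the filter the edgeR adjusted p was 0.453, and with DESeq2 it was 0.478. No difference in Socs2 was detected.

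Socs4 and Socs5 are the pair with long N-terminal regions that are best known for acting on the epidermal growth factor receptor. Socs4 (ENSMUSG00000048379, chr14:47276931-47296102, plus strand) had 34.9, 41.7 and 38.9 CPM in the control replicates, in order, and 31.1, 29.4 and 34.4 CPM in the LPS replicates. The groups did not overlap, although control replicate 1 and LPS replicate 3 lay next to each other. From counts of 597, 736 and 723 against 490, 482 and 565, the mean went from 38.5 ± 3.45 CPM (SD, n = 3) to 31.6 ± 2.55 CPM (SD, n = 3). The log2 fold change was −0.28 (SE 0.08, 95% interval −0.46 to −0.11), with an edgeR adjusted p of 0.0159. The call was lost without control replicate 2 (−0.23, adjusted p = 0.0703), without control replicate 3 (−0.28, adjusted p = 0.0525) and without LPS replicate 2 (−0.23, adjusted p = 0.0811). Control replicates 2 and 3, the higher control libraries for Socs4, are also those with the higher summed hepatocyte markers, whose part in the result was not tested, and against control replicate 1 alone Socs4 was at −0.14.

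Socs5 (ENSMUSG00000037104, chr17:87107679-87137583, plus strand) had 19.0, 16 and 19.2 CPM in the control replicates and 16.2, 15.6 and 15.6 CPM in the LPS replicates. The groups overlapped, since control replicate 2 lay below LPS replicate 1. The mean was 18.1 ± 1.81 CPM (SD, n = 3) in control and 15.8 ± 0.325 CPM (SD, n = 3) with LPS. The log2 fold change of −0.20 (SE 0.10, 95% interval −0.41 to 0.02) did not pass (edgeR adjusted p = 0.149). Without control replicate 2 it was −0.28 with an adjusted p of 0.0493. The interval for Socs5 contains the value for Socs4, so the 2 genes were not shown to differ in response.

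Socs6 and Socs7 form another pair with long N-terminal regions, known for binding insulin receptor substrates and other receptor tyrosine kinase partners. Socs6 (ENSMUSG00000056153, chr18:88665224-88927481, minus strand) had 16.4, 17.1 and 16.1 CPM in the control replicates and 12.7, 13.8 and 14.3 CPM in the LPS replicates. All LPS libraries lay below all control libraries. The mean went from 16.5 ± 0.53 CPM (SD, n = 3) to 13.6 ± 0.806 CPM (SD, n = 3). The log2 fold change was −0.28 (SE 0.10, 95% interval −0.48 to −0.07), with an edgeR adjusted p of 0.0368. DESeq2 gave −0.29 with an adjusted p of 0.116, and of 6 fits that each left out 1 library only that without LPS replicate 3 kept the call (adjusted p of 0.0437 to 0.117 over the 6). Against control replicate 1 alone it was at −0.27.

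Socs7 (ENSMUSG00000038485, chr11:97362551-97398542, plus strand) had 42.7, 40.0 and 40.9 CPM in control and 43.1, 43.7 and 44.7 CPM with LPS. The groups did not overlap, but the highest control and the lowest LPS library were adjacent. The mean was 41.2 ± 1.38 CPM (SD, n = 3) in control and 43.8 ± 0.808 CPM (SD, n = 3) with LPS. The log2 fold change of 0.09 (SE 0.06, 95% interval −0.04 to 0.22) did not pass (edgeR adjusted p = 0.288), and its sign turned to −0.01 when libraries were scaled by their totals alone. That scaling moved the median log2 fold change of all tested genes from 0.004 to −0.095.

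**Figure D3:**
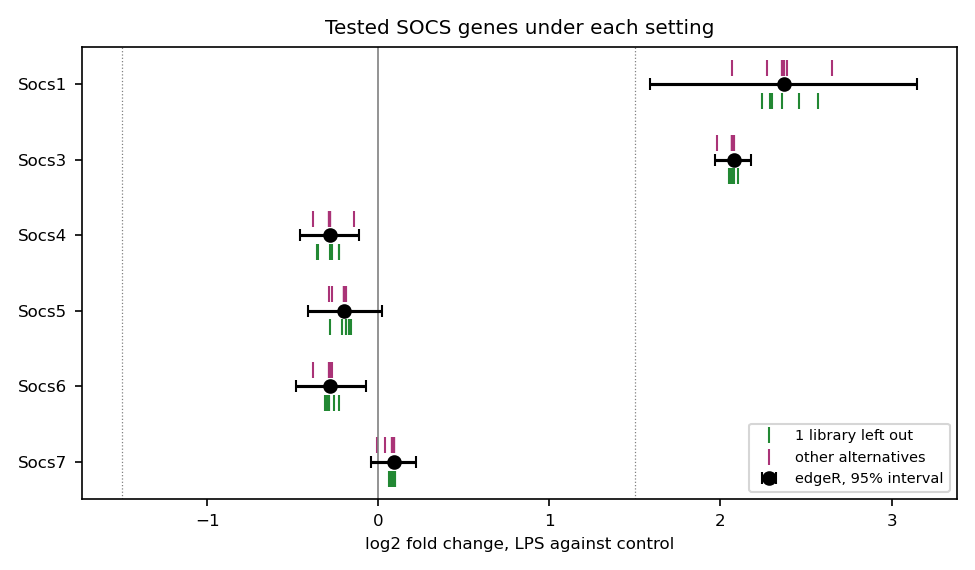
Log2 fold change of the 6 tested SOCS genes, LPS against control, from edgeR with its 95% interval (black), with each library left out in turn (green) and under the other alternatives (purple). Dotted lines mark ±1.5 on the log2 scale. Socs1 and Socs3 stay above 1.5 throughout while Socs4 to Socs7 stay near 0.

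Compared per length, as CPM per kb of the gene length in the deposited table, Socs3 was the most abundant member in both groups. In control cells Socs3 stood at 13.6 ± 0.135 (SD, n = 3), followed by Socs7 at 5.67 ± 0.191, Socs4 at 5.6 ± 0.502, Socs5 at 4.12 ± 0.412 and Socs6 at 2.01 ± 0.0645. Socs7 and Socs4 overlapped and were not ordered. Far below lay Socs1 at 0.122 ± 0.0295, Socs2 at 0.0276 ± 0.00441 and Cish at 0.0144 ± 0.00934 CPM per kb, the last 2 overlapping. With LPS Socs3 reached 57.2 ± 1.76 and Socs1 0.644 ± 0.0734 CPM per kb (SD, n = 3). Socs7 at 6.03 ± 0.111, Socs4 at 4.6 ± 0.371, Socs5 at 3.59 ± 0.074 and Socs6 at 1.66 ± 0.098 CPM per kb did not overlap one another. Cish at 0.0838 ± 0.0356 and Socs2 at 0.0542 ± 0.0208 CPM per kb overlapped again. Thus Socs1, a DEG, remained below Socs6 in level per length.

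The summed level of the family was 31.1 ± 0.271 CPM per kb (SD, n = 3) in control and 73.9 ± 1.27 CPM per kb (SD, n = 3) with LPS. Without Socs3 the sums were 17.6 ± 0.186 and 16.7 ± 0.541 CPM per kb. Socs3 accounted for 43.6 ± 0.274% of the family's level in control libraries and 77.4 ± 1.08% in LPS libraries. The length used matters most for Socs2, which the table gives 9531 bases and whose longest coding transcript has 2222. With transcript lengths Socs1 and Socs2 overlapped in control, and Socs2 and Cish overlapped with LPS.

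**Figure D4:**
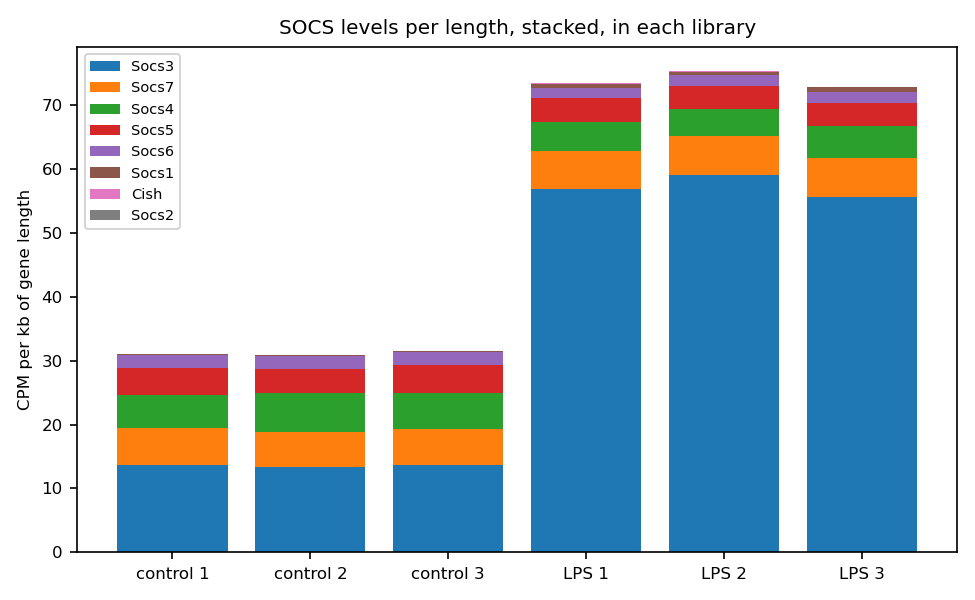
Level of each SOCS gene in CPM per kb of deposited gene length, stacked for each of the 6 libraries. The part of Socs3 grows from 13.4 to 13.7 in control to 55.6 to 59.1 with LPS, while the remaining stack is 17.4 to 17.8 in control and 16.2 to 17.3 with LPS.

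Both DEG encode short proteins, as do the untested Socs2 and Cish. From the longest coding transcripts of GENCODE M21, the encoded proteins have 212 residues for Socs1, 225 for Socs3, 198 for Socs2 and 257 for Cish, against 436 for Socs4, 536 for Socs5, 533 for Socs6 and 579 for Socs7. Socs1, Socs3, Socs4, Socs5 and Socs6 each have 1 coding exon, which 5.22% of 11009 tested coding genes share, while Socs2 has 2, Cish 3 and Socs7 9. Over aligned residues the closest pairs were Socs4 with Socs5 (55.4% identical) and Socs2 with Cish (47.7%). Socs6 with Socs7 stood at 38.1%, below Socs2 with Socs4 at 39.6% and Socs3 with Socs7 at 38.5%. Socs1 and Socs3, the members that rose, were 37.6% identical, close to Socs1 with Cish at 37.8%. The 3′ untranslated regions held different numbers of AUUUA, the core letters of elements known to shorten mRNA life. Socs1 held 0 in 1993 bases, Socs3 4 in 1474, Cish 3 in 1087 and Socs2 2 in 1163, and Socs4 17 in 5182, Socs6 10 in 4019, Socs5 4 in 2595 and Socs7 5 in 5184. Per kb these are 0 for Socs1, 2.71 for Socs3 and 3.28 for Socs4, where the median of 10325 tested genes was 1.34. The DEG of the family thus lay on both sides of the median, and mRNA stability was not measured.

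Around the family, more of the receptors that SOCS proteins act on were called higher than lower. Beside this list and each list below stand the shares of all tested genes, 34.3% called, 18.7% higher and 15.7% lower. Of 40 type I and type II cytokine receptor genes 21 were tested, 11 were called higher, 2 lower and 8 neither, which is 61.9% called. Their median log2 fold change was 0.24. Il20rb, a subunit of receptors of the interleukin 20 group, rose from 2.4 ± 0.41 to 10.1 ± 1.31 CPM (SD, n = 3), at 2.07 (SE 0.18, edgeR adjusted p = 2.88e-07). Il15ra, which presents interleukin 15, rose from 2.11 ± 0.503 to 6.91 ± 1.55 CPM, at 1.71 (SE 0.23, edgeR adjusted p = 3.1e-05). Il4ra, the interleukin 4 receptor chain that signals through STAT6, rose from 15.0 ± 1.24 to 33.1 ± 2.43 CPM, at 1.14 (SE 0.09, edgeR adjusted p = 1.42e-07). Il6st, chosen after its value was seen because it encodes gp130, the receptor subunit that Socs3 binds, was lower at −0.19 (SE 0.05, edgeR adjusted p = 0.0131). With control replicates 2 and 3 left out 0 receptors were called lower, and DESeq2 called 1. Ifnar1, a chain of the type I interferon receptor, was at 80.9 ± 6.14 and 89.7 ± 4.45 CPM and did not pass (0.15, SE 0.06, edgeR adjusted p = 0.0704).

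Of 40 ligands of these receptors 5 were tested, and 21 were at 0 in every library. Among the 5, 4 were called higher, 0 lower and 1 neither, and their median log2 fold change was 0.79. The number called higher was 2 without LPS replicate 1 and 2 with library totals. Csf3, the granulocyte colony-stimulating factor, had 2, 3 and 0 counts in the control replicates and 115, 117 and 114 in the LPS replicates. Its ratio of summed counts was 76.0, with an exact counting interval of 32.2 to 235, and its edgeR adjusted p was 6.85e-09. Like Socs1, Csf3 entered the test through its LPS libraries. Il15 rose from 1.24 ± 0.252 to 3.12 ± 0.767 CPM (SD, n = 3), at 1.33 (SE 0.28, edgeR adjusted p = 0.00187). Ebi3, a subunit shared by interleukins 27 and 35, rose from 1.46 ± 0.258 to 2.54 ± 0.446 CPM, at 0.79 (SE 0.27, edgeR adjusted p = 0.0334). Il4 was at 0.933 ± 0.131 and 0.655 ± 0.267 CPM and did not pass (edgeR adjusted p = 0.372). Of the ligands below the filter that had counts, named after their values were seen, Il6 had 0 counts in every control library, where 3 counts would be 0.161 to 0.175 CPM, and 10, 14 and 9 in the LPS libraries. Lif had 2, 5 and 9 against 40, 9 and 22, the highest control and the lowest LPS library holding equal counts. Il10 had 1, 0 and 4 against 0, 0 and 5, and each of the remaining untested ligands had at most 5 counts in a library.

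The Janus kinases and STAT factors numbered 11, of which 10 were tested, 5 called higher, 2 lower and 3 neither, and their median log2 fold change was 0.12. With control replicates 2 and 3 left out 1 was called lower, and with library totals 4 were. Stat2 rose from 18.9 ± 2.64 to 89.6 ± 7.33 CPM (SD, n = 3), at 2.24 (SE 0.09, edgeR adjusted p = 3.58e-11). The kinase Tyk2 rose from 50.7 ± 1.85 to 96.2 ± 6.21 CPM, at 0.92 (SE 0.06, edgeR adjusted p = 8.13e-09). Stat6 was at 208 ± 2.61 and 212 ± 6.81 CPM (0.02, SE 0.04, edgeR adjusted p = 0.713).

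Other inhibitors of the pathway went both ways. All 14 were tested, and 4 were called higher, 4 lower and 6 neither, and their median log2 fold change was −0.02. Usp18, which removes ISG15 from proteins and blocks the type I interferon receptor, rose from 4.11 ± 1.07 to 186 ± 13.0 CPM (SD, n = 3), at 5.50 (SE 0.11, edgeR adjusted p = 8.08e-15). The receptor phosphatase gene Ptprj rose from 73.5 ± 5.56 to 188 ± 7.72 CPM, at 1.35 (SE 0.06, edgeR adjusted p = 8.47e-11). Ptpn6, the phosphatase SHP-1, fell from 406 ± 6.58 to 277 ± 7.93 CPM, at −0.55 (SE 0.04, edgeR adjusted p = 5.2e-08). Ptpn11, the phosphatase SHP-2, was at 197 ± 1.98 and 197 ± 4.29 CPM, at 0.00 (SE 0.04, edgeR adjusted p = 0.953).

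The 12 listed subunits and cofactors of elongin-cullin ligases were not limited to cullin 5, which SOCS boxes recruit, and included Cul2. All 12 were tested, and 4 were called higher, 0 lower and 8 neither. This is 33.3% called, close to the 34.3% of all tested genes. Their log2 fold changes spanned −0.04 to 0.54 around a median of 0.05. Ube2f, the NEDD8-conjugating enzyme for cullin 5, rose from 40.6 ± 1.45 to 59.1 ± 10.1 CPM (SD, n = 3), at 0.54 (SE 0.10, edgeR adjusted p = 0.000543). Arih2, a ubiquitin ligase that works with neddylated cullin 5, was higher at 0.32 (SE 0.06, edgeR adjusted p = 0.00102), and elongin B (Elob) at 0.17 (SE 0.05, edgeR adjusted p = 0.0181). Ube2m, the corresponding enzyme of other cullins, was at 153 ± 6.75 and 154 ± 7.13 CPM (0.01, SE 0.05, edgeR adjusted p = 0.889).

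Among 28 other genes of SOCS box proteins 17 were tested, 5 were called higher, 3 lower and 9 neither, and their median log2 fold change was 0.07. Spsb4, of the SPRY domain group, rose from 4.18 ± 0.637 to 8.39 ± 0.284 CPM (SD, n = 3), at 1.01 (SE 0.16, edgeR adjusted p = 0.000129). Asb6, of the ankyrin repeat group, rose from 50.1 ± 2.84 to 79.5 ± 0.749 CPM, at 0.67 (SE 0.05, edgeR adjusted p = 1.83e-07). Asb10 fell from 1.67 ± 0.219 to 0.76 ± 0.143 CPM, at −1.12 (SE 0.32, edgeR adjusted p = 0.0147). Lrrc41 was at 50.8 ± 4.09 and 53.2 ± 2.58 CPM (0.07, SE 0.07, edgeR adjusted p = 0.494). No member of this list was a DEG, where 2.65% of all tested genes were. The same held for the ligase subunits and for the binding partners described next.

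Of 20 binding partners of SOCS proteins outside the cytokine receptors 16 were tested, 4 were called higher, 3 lower and 9 neither, and their median log2 fold change was 0.00. Map3k5, a stress-activated kinase, fell from 6.6 ± 0.812 to 4.26 ± 0.294 CPM (SD, n = 3), at −0.63 (SE 0.16, edgeR adjusted p = 0.00726). Tirap, the adaptor of Toll-like receptor 4 that Socs1 is known to target, was higher at 0.26 (SE 0.09, edgeR adjusted p = 0.0416), and the adaptor Nck1, a partner of Socs7, at 0.24 (SE 0.09, edgeR adjusted p = 0.0468). None of the 4 calls was kept with libraries scaled by their totals alone, and DESeq2 called 2 genes of the list higher. With control replicates 2 and 3 left out 1 partner was called lower. Vav1, a partner of Socs1, was at 182 ± 4.63 and 183 ± 5.97 CPM (0.01, SE 0.04, edgeR adjusted p = 0.885).

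STAT-responsive early genes are known to answer cytokines as SOCS genes do. All 20 listed were tested, and 14 were called higher, 0 lower and 6 neither, and their median log2 fold change was 0.76. The growth factor-responsive transcription factor gene Myc rose from 3.41 ± 0.774 to 26.4 ± 1.93 CPM (SD, n = 3), at 2.95 (SE 0.14, edgeR adjusted p = 2.96e-10). Irf9, the DNA-binding partner of Stat2, rose from 13.0 ± 0.28 to 55 ± 1.94 CPM, at 2.08 (SE 0.07, edgeR adjusted p = 8e-12). Irf1 rose from 11.0 ± 1.07 to 27.1 ± 0.789 CPM, at 1.30 (SE 0.10, edgeR adjusted p = 5.46e-08). Pim3 was at 77.3 ± 5.28 and 79.8 ± 2.66 CPM (0.05, SE 0.06, edgeR adjusted p = 0.585). Beside these lists stand the median of all tested genes, 0.004, and the shares called of 18.7% higher and 15.7% lower. The lists were chosen with earlier results of these data known, so their counts are a description and no independent support. They were not tested as sets, and STAT activity was not measured.

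**Figure D5:**
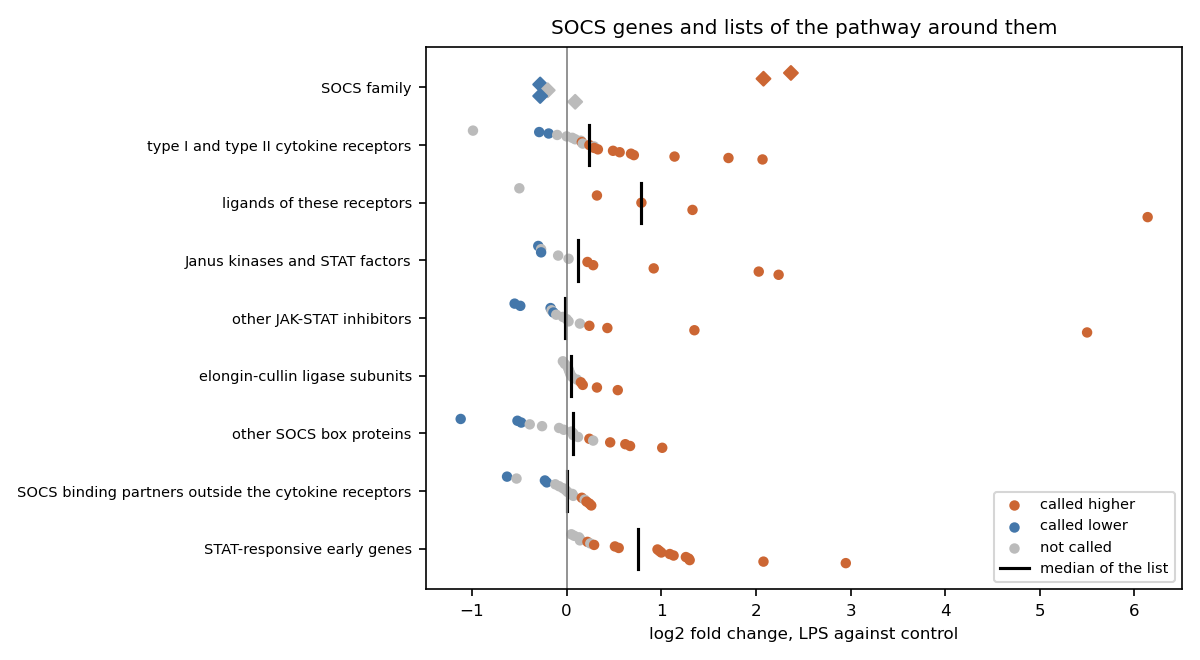
Log2 fold change of each tested gene, LPS against control, for the SOCS family (diamonds) and the lists around it (circles), coloured by the edgeR call, with the median of each list as a black line. Socs1 and Socs3 lie to the right of 2, where Stat2, Irf9, Il20rb and Myc also lie, and Usp18 and Csf3 lie beyond 5 (the fitted value of Csf3, with 0 to 3 control counts, depends on the prior count).

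The genes whose pattern over the 6 libraries was most like that of a called member were found by the root mean square difference in log2 CPM, each centred on its control mean, among 10453 genes averaging 50 counts or more. For Socs3 they were Irf9 (difference 0.0277), Irak3, an inhibitory member of the interleukin 1 receptor-associated kinases (0.0286), and Igsf6, an immunoglobulin superfamily membrane protein (0.0356). Irak3 went from 4.68 ± 0.139 to 19.7 ± 0.98 CPM and Igsf6 from 23.8 ± 0.459 to 102 ± 3.1 CPM (SD, n = 3). For Socs1 they were Crtam, an adhesion molecule of lymphocytes (0.15), Plpp3, a lipid phosphate phosphatase (0.152), and Nod2, a sensor of bacterial muramyl dipeptide (0.157). Crtam went from 1.7 ± 0.207 to 8.11 ± 0.128 CPM, Plpp3 from 16.3 ± 1.75 to 80.4 ± 1.53 CPM and Nod2 from 3.82 ± 0.606 to 17.8 ± 0.806 CPM (SD, n = 3). For Socs4 they were Cyb561 (0.0303), Cbr4 (0.0344) and Mettl9 (0.0347). Their log2 fold changes were −0.27 (SE 0.20), −0.25 (SE 0.11) and −0.28 (SE 0.08). The nearest genes to Socs1 lay farther from it than those to Socs3 and Socs4, and the counts of Socs1 were the lowest of the 3. These differences are a description over 6 libraries that share their depth and scaling.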

How the data were processed

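RNA-seq of 6 libraries, 3 control and 3 LPS, was grouped by the treatment and replicate number in the sample labels. The authors deposited read counts per gene, whole numbers without normalization, with gene lengths in bases. The submitters' processing notes name featureCounts 1.5.0-p3 and mm10, while the aligner, annotation and use of strand are not given in the sources used here. A deposited table of the authors' own comparison (20014 genes, with fold changes and p-values) and its 18 further columns of values per sample were not used. Every row of the count table named a gene.

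LPS was tested against control with edgeR 4.0.16 under R 4.3.3 (TMM, filterByExpr, quasi-likelihood, prior count 0.125), with Benjamini-Hochberg adjustment over 12296 genes. The standard error is the log2 fold change divided by the square root of F. Fits were tested on simulated data with known fold changes, and the outcome is not reported here. Libraries of 1 group differed from each other beyond sampling noise (chi-square per gene 3.61 to 7.82). Proteins were aligned with Biopython 1.88 (BLOSUM62, gap open 10, extend 0.5), exact counting intervals came from scipy 1.17.1, and figures from matplotlib 3.10.9. GENCODE M21 gave transcripts and RefSeq promoters.

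The members and lists were chosen with earlier results of these data known. Named genes are all 8 members, in each list up to 3 called genes with the largest absolute log2 fold change and the most abundant gene not called, and the 3 genes nearest to each of 3 called members. A gene that this rule names is not reported here. Alternatives were DESeq2 1.42.0, RLE size factors, no filter, a mean of 10 counts, robust dispersion, a prior count of 2, a replicate block, glmTreat and each library left out.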

Additional observations from a re-analysis of the deposited data

How the results depend on the processing

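Socs1 and Socs3 kept their direction and their call under all 16 alternatives. With glmTreat at 1.5, 1 member and 183 genes were DEG. With 1 library left out in turn Socs4 ranged from −0.36 to −0.23, Socs5 from −0.28 to −0.16 and Socs6 from −0.31 to −0.23, and the number of members called lower from 0 (without control replicate 3 or LPS replicate 2) to 2. Socs6 was at −0.29 and no longer called with no filter, with no filter and robust dispersion, and with DESeq2, which each left 1 member called lower, and it was called under 7 of 16 alternatives. Socs4 was called under 12 of 16. Cish was at 2.43 and called with no filter, with or without robust dispersion, and Socs5 at −0.29 and called with library totals. Without control replicates 2 and 3, a fit with 1 control library that is assumed to vary as the LPS libraries do, Socs4 was at −0.14 and Socs6 at −0.27, 0 members were called lower, and 1151 genes were lower in all, with fewer samples behind each call. With library totals in place of TMM 1520 genes were higher and 3342 lower, against 2294 and 1927. Socs3's share of the summed level was 45.5% in control and 78.7% with LPS with transcript lengths. The causes were not tested. The fits without the filter and with robust dispersion, with library totals, without both control libraries and with transcript lengths were chosen after seeing the data.

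Same-numbered control and LPS libraries deviated together with correlations of 0.15, 0.07 and −0.01. Differently numbered ones had correlations of −0.17 to 0.1. With 3 libraries per group these values cannot decide whether the numbers pair the samples. A replicate block gave 2454 genes higher and 2020 lower, Socs6 at −0.28 with an adjusted p of 0.045, and no changed call among the members.

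Among the lists, receptors called lower went from 2 to 1 without control replicate 1 or 2 or LPS replicate 1 or 2, ligands called higher from 4 to 2 without LPS replicate 1, and other inhibitors called lower from 4 to 2 without LPS replicate 1 or 3. Library totals left 0 partners, 2 ligase subunits and 2 ligands higher, and 4 Janus kinases and STAT factors lower. Depth limits Socs1, Socs2 and Cish, with at most 34 counts in a library.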
